A study of Homo sapiens with 6 samples.

Results

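The loci of 9 genes of interleukin and JAK-STAT signalling (IL7R, IL2RA, IL2RB, JAK1, JAK3, STAT5B, STAT5A, SOCS1 and SOCS2) were described in ATAC-seq peak lists of 6 lines of T-ALL, the acute lymphoblastic leukaemia that arises from T-cell precursors. The members were the peak intervals that overlapped 8 fixed windows of build hg19 by at least 1 bp, with STAT5B and STAT5A in 1 window. In all, 103 of 116055 intervals on chromosomes 1 to 22 and X were members. Merged across lines where they overlapped, they formed 32 of 40110 regions.

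In ATAC-seq a transposase, Tn5, inserts adapters where DNA is accessible, and a peak marks open chromatin. The established lines TALL-1, MOLT-4, KOPT-K1, HBP-ALL, DND-41 and CCRF-CEM gave 1 library each. All were grown in RPMI medium with serum, and the labels name no treatment or genetic change; the lines' own genotypes are not given there. No replicate error exists for any value below, a difference between lines cannot be told apart from a difference between preparations, and no test between lines was possible. CCRF-CEM had the longest list, 22367 intervals, and TALL-1 the shortest, 16507. Read totals are not known here. A tag depth relative to CCRF-CEM, taken from the lowest background and the smallest interval of each list, ran from 1.35 in MOLT-4 to 2.096 in TALL-1.

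Interleukin 7 and interleukin 2 bind receptors that share a common gamma chain and carry the kinases JAK1 and JAK3 on their inner side. The active kinases phosphorylate STAT5A and STAT5B, which move to the nucleus and bind DNA. Among the genes that STAT5 induces are the SOCS family, whose proteins damp the signal. In the thymus the interleukin 7 receptor keeps early T-cell precursors alive and dividing, and activating mutations of IL7R, JAK1, JAK3 and STAT5B recur in T-ALL.

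RefSeq upstream sequences are shown for 3 members as examples of a start poor and of starts rich in CG pairs. Each run is the 250 bases before a start, 5′ to 3′ on the gene's strand, from build GRCh38.p14. Capitals mark GGAA or TTCC (the core of ETS sites) and TGTGGT (a form of the RUNX site) in IL7R, and CG pairs in JAK1 and SOCS1. The runs lie at chr5:35856641-35856890 on the plus strand for IL7R, at chr1:64966550-64966799 on the minus strand for JAK1 (the third of its listed starts) and at chr16:11256205-11256454 on the minus strand for SOCS1.
IL7R: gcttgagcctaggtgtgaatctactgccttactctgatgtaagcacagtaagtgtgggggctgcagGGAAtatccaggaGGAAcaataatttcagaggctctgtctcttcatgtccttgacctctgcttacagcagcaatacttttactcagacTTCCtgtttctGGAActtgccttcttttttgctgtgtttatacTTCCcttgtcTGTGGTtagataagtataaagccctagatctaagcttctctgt
JAK1: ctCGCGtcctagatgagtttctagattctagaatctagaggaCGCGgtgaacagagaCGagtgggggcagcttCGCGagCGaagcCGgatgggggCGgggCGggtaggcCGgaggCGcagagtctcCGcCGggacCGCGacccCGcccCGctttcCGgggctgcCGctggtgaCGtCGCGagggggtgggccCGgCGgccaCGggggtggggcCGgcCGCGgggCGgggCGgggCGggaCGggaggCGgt
SOCS1: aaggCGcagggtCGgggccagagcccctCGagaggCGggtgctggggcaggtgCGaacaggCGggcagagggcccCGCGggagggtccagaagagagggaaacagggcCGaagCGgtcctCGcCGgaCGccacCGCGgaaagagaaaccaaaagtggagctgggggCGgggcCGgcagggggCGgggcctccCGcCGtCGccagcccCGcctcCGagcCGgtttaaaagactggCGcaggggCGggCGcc

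The IL7R run held 43.6% G and C and 0 CG pairs. The JAK1 run held 74.4% and 35 CG pairs, and the SOCS1 run 74.0% and 27. The JAK1 start shown was the richest of 3: the other two had 55.6% with 13 CG pairs and 38.0% with 3, the last below IL7R in G and C. Over 34943 such runs of RefSeq genes the medians were 58.0% and 11. In IL7R, GGAA was matched 5 times on either strand, and 92.7% of all runs held it at least once. TGTGGT, with its other strand ACCACA, was matched once, its first base 43 bases before the start, and 10.99% of all runs held it. The STAT motif TTCNNNGAA, the same on both strands, had 0 matches in the 11 runs of 7 members that the table holds, against 6.56% of all runs with a match. Its outer letters can overlap TTCC and GGAA. These positions are GRCh38.p14 and were not converted, so no peak below is assigned to a start, an exon or an intron.

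Where values are given per line, pileup is the whole number of tags stacked at the strongest summit of a line in a region, worked out from the fold enrichment and −log10 p that the authors list. Pileups rise with depth, so that the order of lines in raw tags, given window by window, is no comparison of accessibility. Lines are compared on a scaled value further on, at the regions open in every line. Regions are numbered along the chromosome within each window. Of the 101 pairs of a member region and a line with a peak, the pileup was recovered in all, from 8 to 87 with a median of 20. The median over all intervals of the 6 lists was 24.

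**Figure D1:**
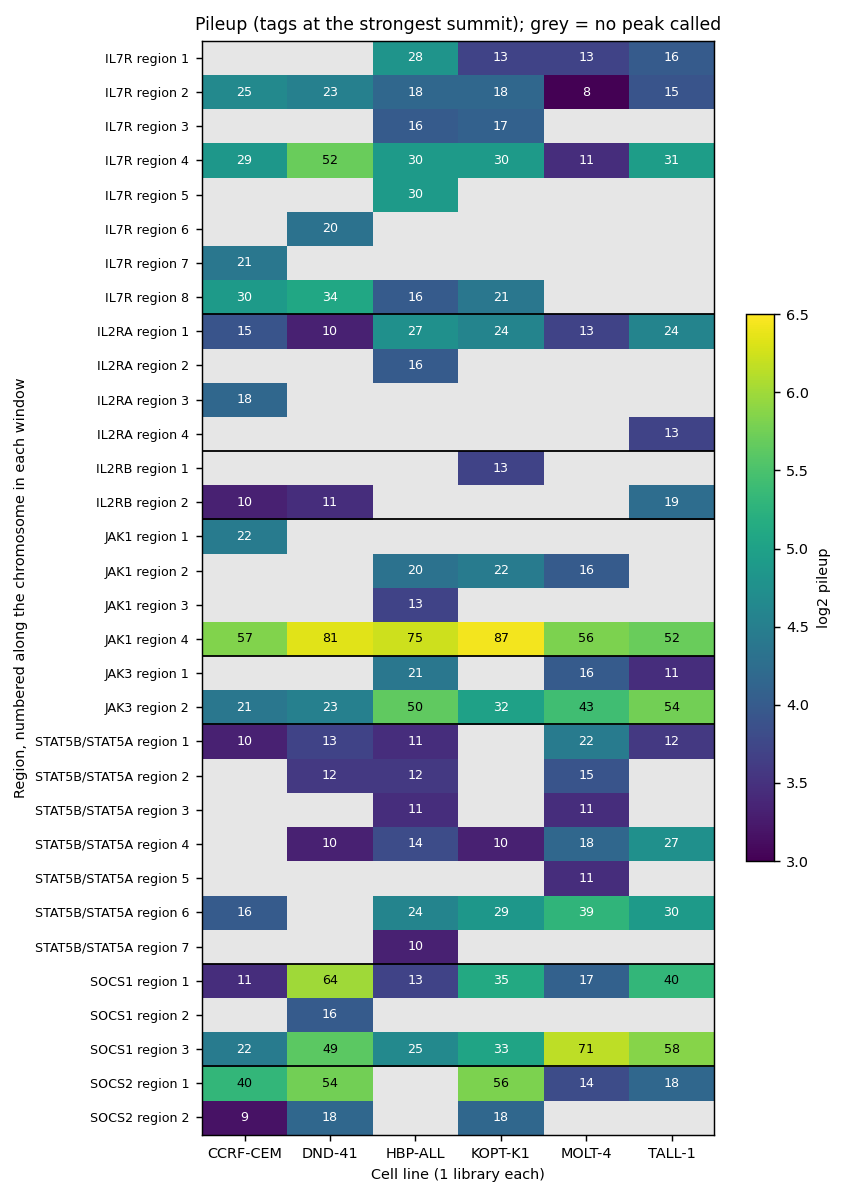
Pileup, in tags, at the strongest summit of each line (columns) in each of the 32 regions (rows, numbered along the chromosome within a window); grey marks no called peak. JAK1 region 4 holds 52 to 87 tags, SOCS1 region 3 is the highest row in MOLT-4 (71) and TALL-1 (58), and both SOCS2 rows are empty in HBP-ALL.

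IL7R encodes the alpha chain of the interleukin 7 receptor. Its window, chromosome 5 from 35830000 to 35910000, held 8 regions, the most of any window. Of these, 2 were open in every line, 3 in 2 to 4 lines and 3 in a single line. In RefSeq gene order IL7R lies between SPEF2 and CAPSL, so peaks near the window's edges may belong to these genes.

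IL7R region 4, at 35884319 to 35885178, was the taller of the 2 regions open in every line. Pileups were 52 in DND-41, 31 in TALL-1, 30 in both HBP-ALL and KOPT-K1, 29 in CCRF-CEM and 11 in MOLT-4. DND-41 stood highest and MOLT-4 lowest, also after the scaling used below, and the raw tags of the other 4 lines lay within 2 of each other. By fold enrichment DND-41 did not keep this lead, as given below. The strongest summits of the 6 lines fell within 123 bp. IL7R region 2, at 35856728 to 35857315, had 25 tags in CCRF-CEM, 23 in DND-41, 18 in both KOPT-K1 and HBP-ALL, 15 in TALL-1 and 8 in MOLT-4. MOLT-4 was again the lowest line, in raw tags and after scaling, though not by fold enrichment. Its 8 tags were the lowest pileup of any member peak.

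The remaining IL7R regions separated the lines. Region 1, at 35830587 to 35831232, was called in HBP-ALL with 28 tags, in TALL-1 with 16 and in KOPT-K1 and MOLT-4 with 13 each. Region 8, at 35908291 to 35909162, was called in CCRF-CEM with 30, DND-41 with 34, HBP-ALL with 16 and KOPT-K1 with 21. HBP-ALL and KOPT-K1 thus had both outer regions, CCRF-CEM and DND-41 only region 8, and MOLT-4 and TALL-1 only region 1. Region 3 was called in HBP-ALL and KOPT-K1, with 16 and 17 tags.

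Between regions 4 and 8 lay 3 neighbouring regions, each called in a different single line. Region 5 was called only in HBP-ALL (30 tags), region 6 only in DND-41 (20 tags) and region 7 only in CCRF-CEM (21 tags). Region 7, at 35902462 to 35902671, had the highest −log10 p of these, 17.4 in the authors' list. The gaps between them were 873 bp and 826 bp.

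**Figure D2:**
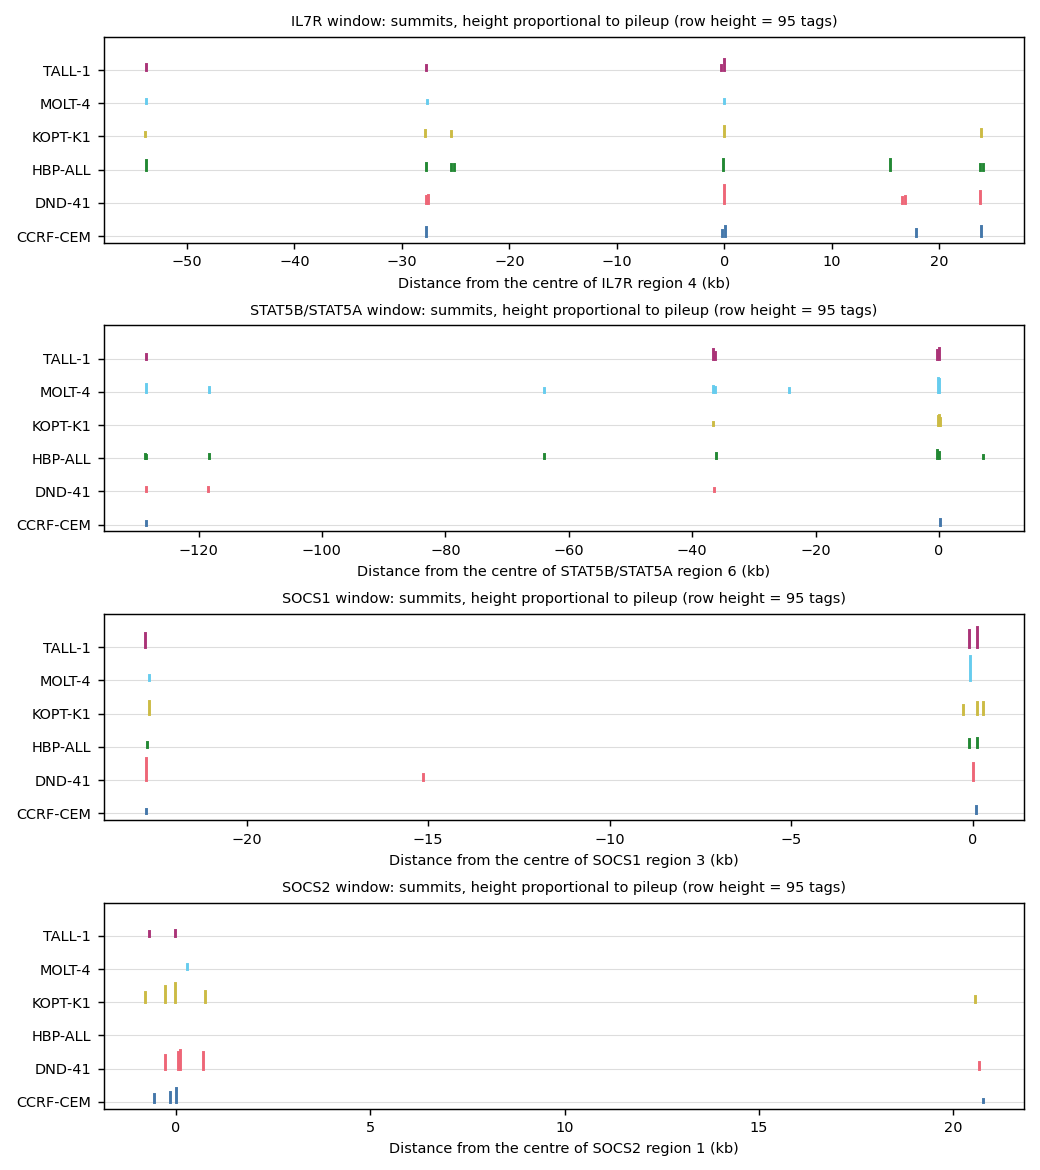
Called summits along 4 windows, as distance in kb from the centre of the named region (horizontal axis), with 1 row per line and the height of each bar proportional to the pileup of that summit. The 3 neighbouring single-line IL7R regions lie to the right of region 4, in HBP-ALL, DND-41 and CCRF-CEM, and the SOCS2 row of HBP-ALL is empty.

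IL2RA encodes the alpha chain of the interleukin 2 receptor, CD25, a marker of activated T cells. Its window, chromosome 10 from 6030000 to 6130000, held 4 regions, 1 open in every line and 3 in a single line each. Region 1, at 6092685 to 6093301, had 27 tags in HBP-ALL, 24 in both TALL-1 and KOPT-K1, 15 in CCRF-CEM, 13 in MOLT-4 and 10 in DND-41. In HBP-ALL the strongest summit lay farthest from the others, and over the 6 lines summits spread over 305 bp. Region 3, at 6110336 to 6110706, was called only in CCRF-CEM, with 18 tags and a −log10 p of 15.8. Region 2 was called only in HBP-ALL (16 tags) and region 4 only in TALL-1 (13 tags).

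IL2RB encodes the beta chain, which the receptors for interleukin 2 and interleukin 15 share. Its window, chromosome 22 from 37500000 to 37570000, held only 2 regions and none open in every line. Region 2, at 37545706 to 37546279, was called in CCRF-CEM with 10 tags, in DND-41 with 11 and in TALL-1 with 19. Region 1, at 37518314 to 37518560, was called only in KOPT-K1, with 13 tags and a −log10 p of 9.91. HBP-ALL and MOLT-4 had no peak in the window.

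JAK1 encodes a kinase that many cytokine receptors use. Its window, chromosome 1 from 65280000 to 65455000, held the region with the highest median pileup of all members, 66 tags. Region 4, at 65431689 to 65432643, had 87 tags in KOPT-K1, 81 in DND-41, 75 in HBP-ALL, 57 in CCRF-CEM, 56 in MOLT-4 and 52 in TALL-1. All 6 lines had 52 tags or more here, and the median over lines exceeded that of 87.0% of the 9042 regions open in every line. The strongest summits fell within 121 bp.

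Ranked by −log10 p within its own list, this JAK1 peak stood among the strongest 10% of intervals in 4 lines: HBP-ALL at 2.72%, KOPT-K1 at 3.22%, DND-41 at 7.10% and MOLT-4 at 8.99%. In CCRF-CEM it stood at 11.4% and in TALL-1 at 31.3%. Of all 101 member peaks 5 were in the strongest 10%, the other being DND-41 at SOCS1 region 1, and 36 were in the stronger 50%. Ranked by fold enrichment, JAK1 region 4 stood at 54.2% in TALL-1 and from 7.90% to 22.7% in the other lines. The rest of the JAK1 window was less alike. Region 2, at 65342731 to 65343464, was called in HBP-ALL (20 tags), KOPT-K1 (22) and MOLT-4 (16), with summits within 19 bp. Region 1, at 65329758 to 65330144, was called only in CCRF-CEM, with 22 tags and a −log10 p of 20.5, the highest among all 12 single-line member regions. Region 3 was called only in HBP-ALL, with 13 tags.

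JAK3 encodes the kinase that pairs with the common gamma chain, and is largely confined to blood cells. Its window, chromosome 19 from 17915000 to 17980000, held 2 regions. Region 2, at 17970368 to 17970923, was open in every line, with 54 tags in TALL-1, 50 in HBP-ALL, 43 in MOLT-4, 32 in KOPT-K1, 23 in DND-41 and 21 in CCRF-CEM. HBP-ALL, MOLT-4 and TALL-1 formed the upper group here, in raw tags and after scaling, though the highest and the lowest line differed between these scales. The same 3 lines were those with a peak at region 1, at 17958391 to 17958917, with 21, 16 and 11 tags. To which gene region 2 belongs was not determined. On chromosome 19 as a whole these 3 lines also had the highest relative pileups, as given below.

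STAT5A and STAT5B encode the STAT proteins that act below these receptors. They share a window on chromosome 17, from 40330000 to 40485000, which held 7 regions. None was open in every line, 3 were open in 5 lines, and each of these lacked a peak in a different line. In RefSeq gene order GHDC precedes STAT5B and STAT3 follows STAT5A. Peaks near the lower edge, such as region 1, or near the upper edge may therefore belong to these genes.

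STAT5B/STAT5A region 6, at 40464379 to 40465259, had the highest median pileup of the 3, with 39 tags in MOLT-4, 30 in TALL-1, 29 in KOPT-K1, 24 in HBP-ALL and 16 in CCRF-CEM, and no peak in DND-41. Its shape varied: KOPT-K1 had 3 summits, CCRF-CEM 1 and the others 2, with the strongest summits up to 379 bp apart. Region 4, at 40427980 to 40428747, had 27 tags in TALL-1, 18 in MOLT-4, 14 in HBP-ALL and 10 in both KOPT-K1 and DND-41, and no peak in CCRF-CEM. Region 1, at 40335975 to 40336527, had 22 tags in MOLT-4, 13 in DND-41, 12 in TALL-1, 11 in HBP-ALL and 10 in CCRF-CEM, and no peak in KOPT-K1. These raw tags were not scaled, since no region of the window was open in every line. HBP-ALL and MOLT-4 had 6 peaks each in this window, and the other lines 2 or 3. On the relative scale given below, chromosome 17 medians were 0.41 in MOLT-4, 0.25 in TALL-1 and 0.15 in HBP-ALL. They were −0.02 in KOPT-K1, −0.17 in DND-41 and −0.64 in CCRF-CEM, and their part in the peak counts was not tested.

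The other regions of the STAT5B/STAT5A window had 10 to 15 tags where called. Region 2 was called in DND-41, HBP-ALL and MOLT-4 with 12 to 15 tags, and region 3 in HBP-ALL and MOLT-4 with 11 each. Region 5 was called only in MOLT-4, with 11 tags. Region 7, at 40471857 to 40472154, was called only in HBP-ALL, with 10 tags and a −log10 p of 5.48, the highest of the single-line regions in this window.

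SOCS1 encodes an inhibitor that binds and blocks JAK kinases. Its window, chromosome 16 from 11325000 to 11375000, held 3 regions, of which 2 were open in every line. SOCS1 lies between CLEC16A and TNP2 in RefSeq gene order, so peaks near the window's edges, such as region 1, may belong to these genes. Region 3, at 11349331 to 11350448, had 71 tags in MOLT-4, 58 in TALL-1, 49 in DND-41, 33 in KOPT-K1, 25 in HBP-ALL and 22 in CCRF-CEM. Region 1, at 11326744 to 11327534, had 64 in DND-41, 40 in TALL-1, 35 in KOPT-K1, 17 in MOLT-4, 13 in HBP-ALL and 11 in CCRF-CEM. CCRF-CEM and HBP-ALL were the lowest lines at both, in raw tags and after scaling. Relative to the chromosome this did not hold at region 1, and by fold enrichment at neither region, as given below. MOLT-4 was the highest line at region 3 and among the 3 lowest at region 1, and DND-41 led at region 1.

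At region 1 the strongest summits of all lines fell within 103 bp, so that the lines shared the position and differed in height. The DND-41 peak there had a −log10 p of 47.9 and stood at 9.21% of its list, while that of CCRF-CEM stood at 78.3%. Region 2, at 11334633 to 11334913, was called only in DND-41, with 16 tags and a −log10 p of 10.3. It lay 7098 bp from region 1 and 14417 bp from region 3.

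SOCS2 encodes another inhibitor, best known for limiting growth hormone signalling. Its window, chromosome 12 from 93940000 to 93995000, held 2 regions and no peak in HBP-ALL. Region 1, at 93963747 to 93965785, spanned 2039 bp, the widest of the members, with 56 tags in KOPT-K1, 54 in DND-41, 40 in CCRF-CEM, 18 in TALL-1 and 14 in MOLT-4. DND-41 and KOPT-K1 had 4 summits each across it, CCRF-CEM 3, TALL-1 2 and MOLT-4 1. The MOLT-4 interval covered 278 bp, and that of DND-41 1880 bp. Region 2, at 93985193 to 93985640, was called in CCRF-CEM with 9 tags, DND-41 with 18 and KOPT-K1 with 18. The 3 lines with a peak at region 2 were also those with 3 or 4 summits at region 1.

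By sharing, the 32 regions resembled the lists as a whole. Regions open in every line numbered 7, or 21.9% (exact binomial 95% interval 9.28% to 39.97%, which covers counting error only), against 22.6% of all merged regions. Single-line regions numbered 12, or 37.5% (21.1% to 56.3%), against 43.2%. Regions open in 5 lines numbered 4, or 12.5% (3.51% to 29.0%), against 6.53%. Those open in 4, 3 and 2 lines numbered 2 (6.25%, against 6.15%), 5 (15.6%, against 8.02%) and 2 (6.25%, against 13.6%). The intervals include the shares of all regions in each case. The 7 regions comprised 2 at IL7R, 2 at SOCS1 and 1 each at IL2RA, JAK1 and JAK3. With only peaks of a −log10 p of at least 10, they fell to 3 (JAK1 region 4, JAK3 region 2 and SOCS1 region 3), and with every list limited to its 16507 strongest peaks to 4, which added IL7R region 4.

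**Figure D3:**
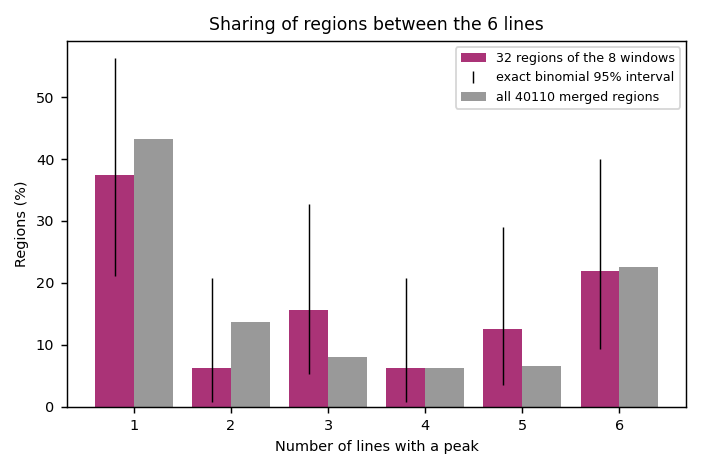
Share of regions, in percent, by the number of lines with a peak, for the 32 regions of the windows (coloured, with exact binomial 95% intervals) and all 40110 merged regions (grey). The grey bars lie within the intervals for 6 lines (22.6%) and for 1 line (43.2%).

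By line, HBP-ALL had a peak at 21 of the 32 regions (65.6%, against 54.5% of all merged regions). MOLT-4 had 17 (53.1%, against 47.3%). KOPT-K1, DND-41 and CCRF-CEM had 16 each (50%, against 44.8%, 44.3% and 55.4%), and TALL-1 had 15 (46.9%, against 40.7%). With lists limited to equal length, HBP-ALL had 13 intervals in place of 21, fewer than KOPT-K1 (17), TALL-1 (16), MOLT-4 (15) and DND-41 (14), and more than CCRF-CEM (12), so that its lead was lost. Of the 12 single-line member regions HBP-ALL had 4, CCRF-CEM 3, DND-41 2 and the other lines 1 each. Of all 17315 single-line regions CCRF-CEM held 37.1%, HBP-ALL 26.9%, MOLT-4 10.5%, KOPT-K1 8.65%, TALL-1 8.61% and DND-41 8.25%, and the first 2 had the longest lists. Among pairs, MOLT-4 and TALL-1 shared the largest part of the regions open in either, 13 of 19 (68.4%, against 54.9% over all merged regions). CCRF-CEM and HBP-ALL shared the smallest part, 10 of 27 (37.0%, against 40.3%, the smallest share of any pair over all regions too).

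To compare heights between lines, pileups at the 7 regions open in every line were put on a relative scale: log2, minus the mean log2 over lines, with the median over 9042 such regions genome-wide subtracted for each line. A value of 1 is a pileup 2-fold above that mean after centring. Counting error is given as a 95% half-width, from the number of tags alone. Over the genome, 2.5% of such values lay at least 1 log2 unit from 0, and among the members 3 of 42 did. The 3 were DND-41 at SOCS1 region 1 and MOLT-4 at both IL7R regions. Over the genome, 0.177% of DND-41 values lay at least 1 log2 unit above 0, and 1.05% of MOLT-4 values at least 1 below. No member value was that high in CCRF-CEM (3.49% over the genome), TALL-1 (0.907%), HBP-ALL (0.597%), MOLT-4 (0.398%) or KOPT-K1 (0.376%). None was that low in CCRF-CEM (3.24%), TALL-1 (2.34%), HBP-ALL (1.09%), KOPT-K1 (0.796%) or DND-41 (0.531%). At least 1 such value stood at 3 of the 7 regions, against 12.5% of regions over the genome. They were 10 with each line set against the median of the other 5 (5.84% over the genome), and 0 with the authors' fold enrichment in place of the pileup (0.0406%).

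SOCS1 region 1 had the widest spread of the 7. DND-41 stood at 1.28 ± 0.35 (counting 95% half-width), KOPT-K1 at 0.53 ± 0.48 and TALL-1 at 0.49 ± 0.45. MOLT-4 stood at −0.46 ± 0.69, HBP-ALL at −0.94 ± 0.78 and CCRF-CEM at −0.95 ± 0.85. The spread of 2.23 was wider than at 96.9% of regions open in every line, where its median was 1.06. The median pileup of this region exceeded that of only 21.4% of them, and counting error is wider at low pileups. Spreads were not compared among regions of like pileup. The DND-41 value exceeded 99.97% of that line's values. The chromosome 16 medians were 0.01 in DND-41, 0.37 in TALL-1, 0.25 in MOLT-4, −0.05 in HBP-ALL, −0.24 in KOPT-K1 and −0.43 in CCRF-CEM. Relative to the chromosome DND-41 stood at 1.27, KOPT-K1 at 0.77, TALL-1 at 0.12, CCRF-CEM at −0.52, MOLT-4 at −0.71 and HBP-ALL at −0.89. By fold enrichment DND-41 stood at 0.61, TALL-1 at 0.25, KOPT-K1 at 0.03, HBP-ALL at −0.14, MOLT-4 at −0.35 and CCRF-CEM at −0.43. The local background there was 4.95 tags in DND-41, 4.03 in KOPT-K1, 3.97 in TALL-1, 2.34 in MOLT-4, 1.25 in HBP-ALL and 0.99 in CCRF-CEM. Its part in these differences was not tested.

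At IL7R region 4 MOLT-4 stood at −1.27 ± 0.85 and DND-41 at 0.80 ± 0.39. The other 4 lines lay between −0.06 and 0.27. The spread of 2.07 was wider than at 95.4% of regions, again not matched for pileup. The median pileup here exceeded that of 31.2% of them. At IL7R region 2 MOLT-4 stood at −1.001 ± 0.9997, just past the threshold, CCRF-CEM at 0.78 ± 0.57, and the other lines between −0.38 and 0.35. By relative pileup MOLT-4 thus had the lowest value at both IL7R regions. The chromosome 5 median of MOLT-4 was −0.16, and relative to it the values were −1.11 at region 4 and −0.84 at region 2. By fold enrichment they were −0.40 and −0.13. At region 2 KOPT-K1 (−0.249), HBP-ALL (−0.191) and DND-41 (−0.136) then stood below MOLT-4 (−0.134). At region 4 DND-41 stood at 0.089 by fold enrichment, below HBP-ALL (0.230), TALL-1 (0.140) and CCRF-CEM (0.094).

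**Figure D4:**
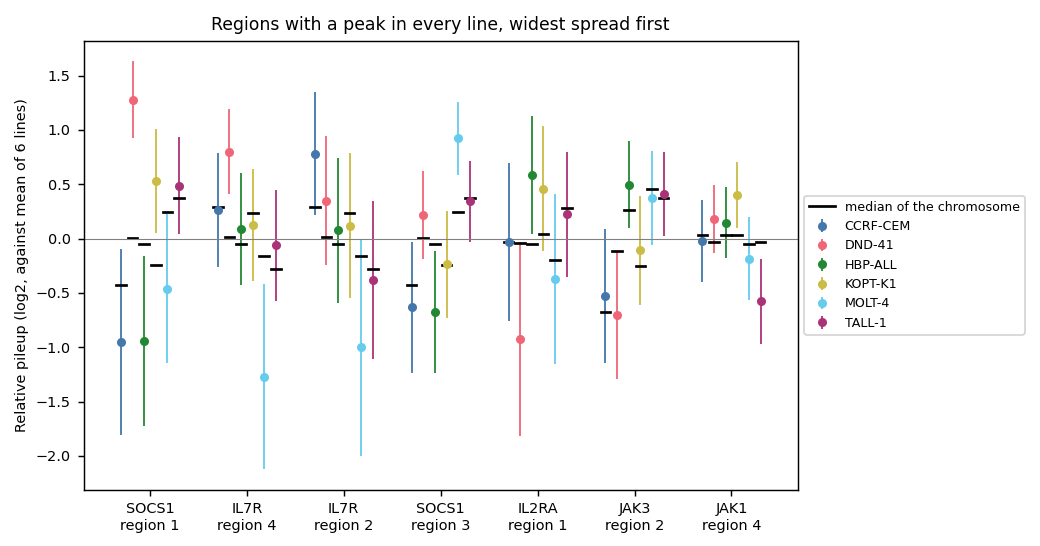
Relative pileup (log2, vertical axis) of the 6 lines at the 7 regions open in every line, with bars for the 95% counting error and black ticks for the median of the same line and chromosome. DND-41 stands at 1.28 at SOCS1 region 1, and MOLT-4 lies lowest at both IL7R regions.

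The other 4 regions held no value beyond 1. At SOCS1 region 3 MOLT-4 was highest, at 0.92 ± 0.34, and HBP-ALL (−0.68 ± 0.57) and CCRF-CEM (−0.63 ± 0.60) were lowest. Relative to the chromosome these 3 lines stood at 0.67, −0.63 and −0.20. By fold enrichment they stood at 0.27, 0.045 and −0.18, and KOPT-K1 was lowest at −0.24. At IL2RA region 1 DND-41 stood at −0.92 ± 0.89 and HBP-ALL at 0.59 ± 0.54. At JAK3 region 2 HBP-ALL, TALL-1 and MOLT-4 stood at 0.50, 0.41 and 0.37, where the chromosome 19 medians were 0.26, 0.37 and 0.46. CCRF-CEM stood at −0.53 there, with a chromosome median of −0.68, so that relative to its chromosome it stood at 0.15. DND-41 was the lowest line at JAK3 region 2, at −0.70 ± 0.59 against a chromosome median of −0.11. At JAK1 region 4 the lines differed least, from −0.58 ± 0.39 in TALL-1 to 0.40 ± 0.30 in KOPT-K1, a spread narrower than at most regions (percentile 43.3).

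Missing calls were then set against what the other lines would lead to. A recurrent region had a peak in at least 3 of the other 5 lines. CCRF-CEM missed 5 of 16 recurrent member regions (31.3%, exact 95% interval 11.02% to 58.7%), against 23.6% over the genome. DND-41 missed 4 of 15 (16.5% over the genome), KOPT-K1 4 of 16 (16.1%), TALL-1 4 of 16 (23.1%), HBP-ALL 3 of 15 (15.5%) and MOLT-4 3 of 15 (14.2%). The intervals of all 6 lines include the genome-wide shares. Absence from a list says only that the authors' threshold was not reached, not that the chromatin was closed.

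For each of the 23 missing calls the pileup was scaled from the lines with a peak by the median ratio of pileups over shared regions. The scaled median reached the tags needed at the likewise scaled background in all 23. With pileups scaled by ratios of the same chromosome, 18 reached it. The background, and so the tags needed, kept the genome ratio in both cases. Scaled from the lowest of the lines with a peak, 15 of the 23 reached it. The 8 that did not included SOCS2 region 1 in HBP-ALL. Over all recurrent regions without a call, the shares for the scaled median were 99.1% and 93.2%, so the first is near the background. Scaled values are biased upward, because the lines were picked for having a peak.

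The largest gap was at SOCS2 region 1 in HBP-ALL, where the scaled pileup was 46.7 tags (14.9 to 56.9 over the 5 lines), 17 were needed and the nearest HBP-ALL peak lay 101833 bp away. With the ratios of chromosome 12 it was 49.8. At IL7R region 8 the scaled pileup was 30.9 in TALL-1 (13 needed) and 25.3 in MOLT-4 (11 needed). At STAT5B/STAT5A region 6 it was 27.3 in DND-41 (14 needed). The CCRF-CEM misses at STAT5B/STAT5A regions 2 and 4 and at JAK3 region 1 lay on chromosomes 17 and 19. There the scaled pileups were 10.3, 12.0 and 14.7 with the genome ratio, but 6.67, 7 and 6.67 with the ratio of the chromosome. The latter lay below the 9, 10 and 10 tags needed at the background scaled by the genome ratio. The chromosome medians of CCRF-CEM were −0.64 on chromosome 17 and −0.68 on chromosome 19. The other 2 pairs that fell short with the chromosome ratio were SOCS2 region 2 in TALL-1 (15.8 against 16) and MOLT-4 (13.7 against 14). A background scaled by the chromosome ratio, which would change the tags needed, was not tried.

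**Figure D5:**
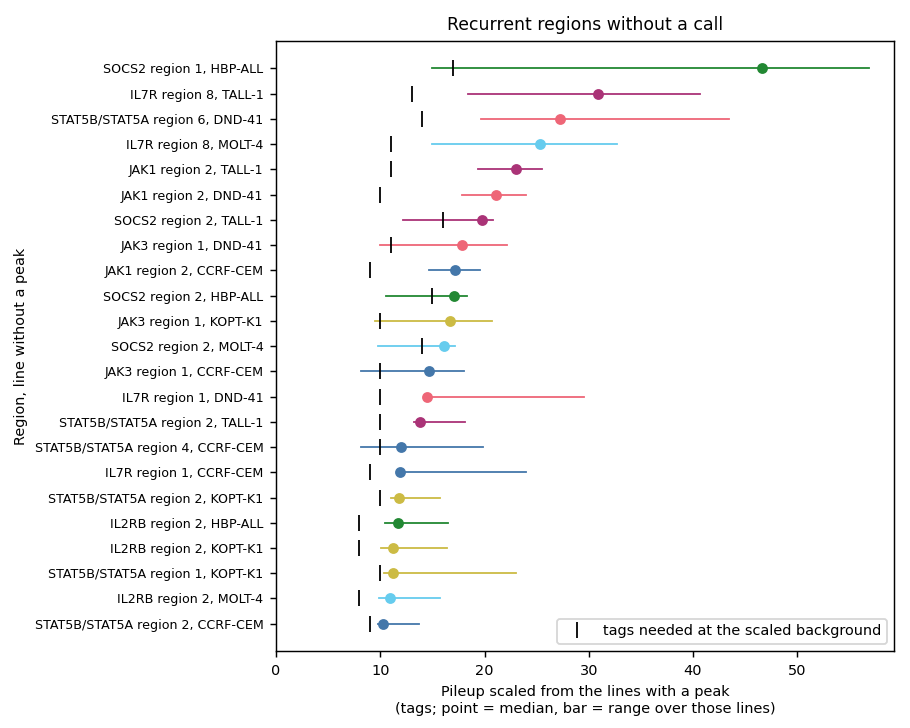
Pileup in tags scaled from the lines with a peak (horizontal axis; point for the median, bar for the range over those lines) for the 23 recurrent region and line pairs without a call, with a tick for the tags needed at the scaled background. SOCS2 region 1 in HBP-ALL stands apart at 46.7, and all medians lie above their ticks.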

How the data were processed

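Deposited peak lists, 1 for each of 6 T-ALL lines, were read without change. Bowtie2, Picard, SAMtools, MACS2 2.1.1.2016030 and hg19 stand in the submitters' processing notes; no source used here gives settings or says whether reads were shifted for Tn5. Each line of the authors' lists holds a score (the −log10 p times 10, rounded down; 7 of 139886 lines differed), a fold enrichment (a ratio to background), and deposited −log10 values of p and q. Of the summits in 1 interval the strongest was used. Intervals of different lines that overlapped by 1 bp were merged.

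Pileups were recovered by searching for a tag number t (whole) and a background level c that gave both the authors' fold, (t + 1) / (c + 1), and their p, a Poisson tail above t. Matches within 0.001 existed for 99.9% of lines in every list. In simulated lists, 100.0% of 9309 pileups and of 3000 shared regions were recovered, and a planted difference of 0.83 (log2) was found at 0.82. The simulated fold and p came from the same formulas, and the shared intervals were placed to overlap. The 100.0% shares therefore check the code only. Python 3.11.15, numpy 2.4.6, pandas 2.3.3 and scipy 1.17.1 were used.

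The members and lists were chosen with earlier results of these data known. In each window, the naming rule took the region open in every line with the highest median pileup, all regions open in 5 lines, the single-line region with the highest −log10 p, and, over all windows, the 6 regions of widest spread; other regions were named after their values were seen. With 1 library per line no test was made. No hg19 annotation was used here, so other pathway genes and markers of the cell type were not analysed here. Scaled pileups at missing calls, with their genome-wide share, and the sharing between pairs of lines were added after the lists were seen.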

Additional observations from a re-analysis of the deposited data

Results flagged for a closer look

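DND-41 had 3 intervals in the SOCS1 window and every other line 2, which set it apart by the gap between its value and the rest. With 5 equal counts any single further interval gives such a gap, so the rate of about 1 in 20 that chance gives for continuous values does not apply, and the flag carries no weight of its own. The lines are not replicates of one group. Of 23 sets of 6 values (counts, covered length and relative pileups) no other had so wide a gap.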

How the results depend on the processing

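No paired analysis was possible because each line had 1 library. With a −log10 p of at least 10, regions open in every line fell from 7 to 3, member intervals fell to 13 in HBP-ALL, 10 in both TALL-1 and KOPT-K1 and 9 in DND-41, and recurrent regions missed were 3 in CCRF-CEM and 1 in both KOPT-K1 and HBP-ALL. With lists limited to equal length, 4 regions were open in every line, HBP-ALL had 13 intervals, and KOPT-K1 and TALL-1 missed 2 recurrent regions each. Where recurrent meant 4 of the other 5 lines, DND-41 and CCRF-CEM missed 2 each, and TALL-1, MOLT-4, KOPT-K1 and HBP-ALL 1 each. These settings use fewer peaks or regions by construction. Values at least 1 log2 unit from 0 numbered 10 against the median of the other 5 lines and 0 by fold enrichment, where the cause was not tested. By fold enrichment 3 member peaks, in place of 5, were in the strongest 10% of their list. Without the CCRF-CEM library 8 regions were open in every remaining line. This one included, 50 alternative counts stayed within 1.5 times the reported ones. Of the single relative pileups, 13 moved beyond their counting error and 155 did not, and the 3 values past 1 kept their sign. Counting error is wide at most members, whose median pileup was 20 tags.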
